A study of Homo sapiens with 3 samples.

Results

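The 10 genes described here handle cytarabine inside the cell. They were taken by symbol from 3 gene tables, 1 per RNA sequencing library, and comprised the transporters SLC29A1 and SLC29A2, the kinases DCK and CMPK1, the deaminases CDA and DCTD, the nucleotidases NT5C, NT5C2 and NT5M, and the triphosphate hydrolase SAMHD1. All 10 of the 10 had a row of their own with a single gene name, among 25247 symbols in all. The libraries came from OCI-AML2 R50, a subline of OCI-AML2, an established line of acute myeloid leukaemia (AML). There were 2 libraries of cells exposed to romidepsin, an inhibitor of class I histone deacetylases, for 18 h, and 1 control library without romidepsin. According to the labels, cells of both kinds grew in MEMα medium with 15% serum and 50 µM cytarabine, so the control was itself under the drug that these genes handle; cells free of cytarabine and unselected OCI-AML2 were not analysed here. The romidepsin dose is not given in the sources used here, nor whether the romidepsin libraries came from separate cultures, so the spread behind each p-value is that of these libraries and may be technical.

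Cytarabine is an analogue of deoxycytidine that is active only as its triphosphate. It enters blasts mainly through equilibrative nucleoside transporters, is phosphorylated by deoxycytidine kinase and then by further kinases, and stops DNA synthesis when a polymerase inserts it. Deaminases turn the drug or its monophosphate into uracil forms, nucleotidases can take the phosphate off again, and SAMHD1 splits the triphosphate back to the nucleoside. Proteins of these kinds can thus add to or take from the active pool. How far each nucleotidase listed here acts on cytarabine was not tested. Low DCK or SLC29A1 and high CDA, NT5C2 or SAMHD1 are known from AML studies in relation to cytarabine response.

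The values are FPKM, fragments normalised to transcript length and library size, as deposited. The steps between the lowest FPKM values of genes with a single transcript correspond to about 21600000 and 21500000 fragments in the romidepsin libraries and 19200000 in the control, an approximate depth. The summed FPKM of named genes was 520552 and 517923 in the romidepsin libraries and 613768 in the control. All 12 markers of AML and myeloid cells reached 1 FPKM in every library, with a sum of 5122 and 5071 FPKM after romidepsin and 9248 FPKM in the control, most of it from LYZ and granule genes. The other markers of this list went both ways. ITGAM was higher after romidepsin, at 20.6 and 21.3 FPKM against 1.53 FPKM in the control. CEBPA (265 and 262 FPKM against 223 FPKM) and CD68 (56.9 and 56.1 FPKM against 48.8 FPKM) were also higher. SPI1 was lower, at 106 and 100 FPKM against 208 FPKM. CSF3R (31.2 and 31.3 FPKM against 44.3 FPKM) and CD33 (28.8 and 28.1 FPKM against 32.4 FPKM) were also lower. All 4 T cell and 4 epithelial markers stayed under 1 FPKM (EPCAM and KRT18 were listed at 0 throughout). Of 4 B cell markers, 1 and 2 reached 1 FPKM in the romidepsin libraries and 0 in the control (sum 2.27 and 2.36 FPKM against 0.952 FPKM; MS4A1 was listed at 0). Of 4 fibroblast markers, 3 and 3 did so in the romidepsin libraries and 0 in the control (sum 7.61 and 7.33 FPKM against 0.608 FPKM; COL1A2 was listed at 0). The part of these shifts in the changes below was not tested. Fewer cells of a kind and less RNA per cell cannot be told apart in such libraries.

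Changes are given on the log2(FPKM + 1) scale, on which genes with low values change less than their FPKM does, while plain folds are ratios of FPKM. A gene was tested with limma where at least 1 library reached 1 FPKM, which gave 11708 genes, and a call means a Benjamini-Hochberg adjusted p under 0.05. All 10 cytarabine genes reached 1 FPKM in the control itself, so none entered the test only through the romidepsin libraries. With 2 libraries against 1, an exact permutation test of a single gene cannot give a one-sided p below 0.333, and the limma test borrows its spread from the romidepsin pair.

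After romidepsin, 6 of the 10 genes were called lower and 3 higher, and DCK was not called. Both transporters, the monophosphate kinase CMPK1, both deaminases and the nucleotidase NT5C were lower, whereas NT5M, SAMHD1 and NT5C2 were higher; SLC29A1 and CDA, the smallest falls, turned slightly higher when the libraries were scaled to the same sum or quantile normalized. These 9 calls among 10 stand beside calls in 76.5% of all genes tested, with 41.8% lower and 34.7% higher, so being called did not set the genes apart. In all 10 genes both romidepsin libraries lay on the same side of the control, as they did in 95.2% of all genes. NT5C alone was at least 2-fold lower on that scale in both libraries, a rule met by 3.08% of all genes, and 0 of the 10 were at least 2-fold higher, against 7.43% of all genes. With no filter on low values, which lets genes at 0 into the fit, the calls of SAMHD1 (higher), CMPK1 and NT5C (lower) held and those of the other 6 did not (adjusted p from 0.0514 to 0.198). The median change of the 10 genes was -0.18, and that of all genes tested was -0.05, but the order of these medians depended on scaling, with 0.06 against 0.16 with the same sum and 0.04 against -0.06 with quantile normalization.

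**Figure D1:**
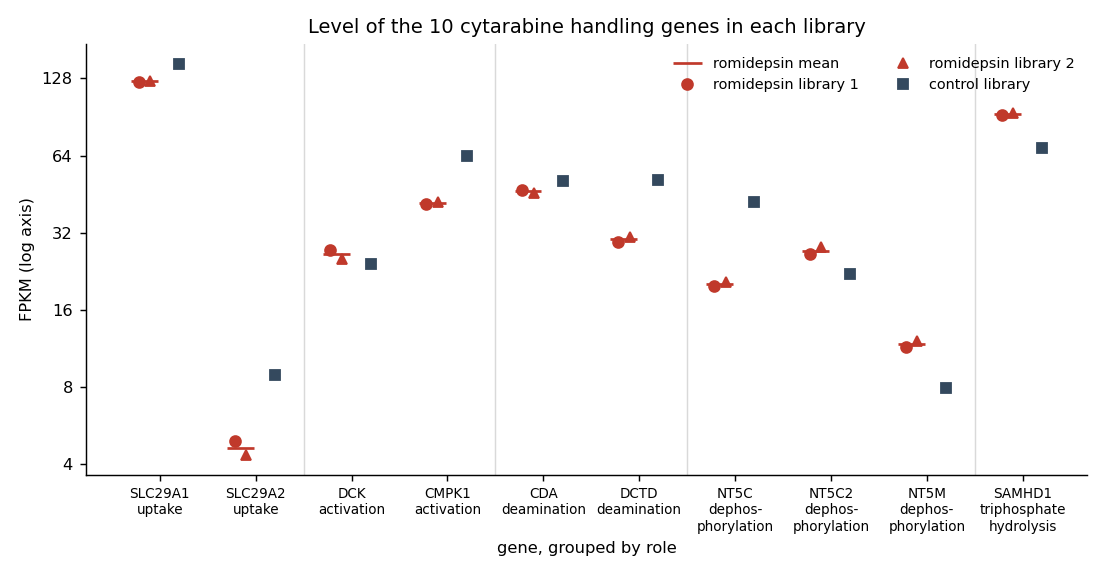
FPKM of each of the 10 genes (log axis) in the 2 romidepsin libraries (red circle and triangle, with a bar at their mean) and in the single control library (dark square), grouped by role. The romidepsin pair lies close together in every gene, and the gap to the control is widest for NT5C and SLC29A2 below it and for NT5M above it.

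SLC29A1 encodes the equilibrative nucleoside transporter that carries most cytarabine into cells. It stood at 124 and 125 FPKM in the romidepsin libraries and at 146 FPKM in the control. It was the most abundant of the 10 in every library, higher than 94.7% of the genes tested after romidepsin and than 94.6% in the control. The romidepsin libraries lay below the control without overlap, 0.852 times its FPKM (log2 change -0.23 ± 0.03 SE, limma adjusted p = 0.000534). This direction depended on scaling, since the log2 change was 0.01 with the same sum (adjusted p = 0.798) and 0.05 with quantile normalization (adjusted p = 0.175).

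SLC29A2, the less abundant equilibrative transporter, was at 4.92 and 4.34 FPKM after romidepsin and at 8.88 FPKM in the control. Its mean of 4.63 ± 0.406 FPKM (SD, n = 2) was 1.92-fold lower than the control. On the log2 scale SLC29A2 fell by 0.81 ± 0.08 SE (limma adjusted p = 8.19e-05), the second largest fall of the 10 with this pseudocount and the fourth largest with a pseudocount of 5 (-0.53). It was the lowest of the 10 in both romidepsin libraries and stood above NT5M in the control. The depth gave about 240, 210 and 390 fragments for this gene in the romidepsin libraries and the control, from its shortest coding transcript of 2262 bases, and counting alone then gives the log2 change an SD of 0.1. The fall held under both other scalings, at -0.60 with the same sum and -0.89 with quantile normalization. AP001107.9, an antisense gene, overlaps SLC29A2 in exons on the opposite strand per GENCODE 29, and strand use is not given in the sources used here.

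DCK, deoxycytidine kinase, carries out the first and rate-limiting phosphorylation of cytarabine. Its values were 27.4 and 25.4 FPKM in the romidepsin libraries and 24.1 FPKM in the control. Both romidepsin libraries were above the control. The gap between them (log2 0.105) was nearly as wide as the distance of their mean from the control. It was wider than the distance of romidepsin library 2 (0.069). The mean of 26.4 ± 1.41 FPKM (SD, n = 2) was 1.09 times the control, and the log2 change of 0.12 ± 0.06 SE did not pass the test (limma adjusted p = 0.0827). It passed with the same sum (0.35, adjusted p = 0.00159) and with quantile normalization (0.23, adjusted p = 0.0276). MOB1B, which overlaps DCK in exons on the same strand per GENCODE 29, was at 7.07 and 6.52 FPKM after romidepsin and 4.30 FPKM in the control, and reads of the shared exons may be split between them. The FPKM of DCK lay above 72.0% of the genes tested after romidepsin and above 68.1% in the control.

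CMPK1, the kinase that turns the monophosphate of cytarabine into its diphosphate, stood at 41.4 and 42.0 FPKM after romidepsin and at 63.6 FPKM in the control. The pair differed by a factor of 1.01, and both were far below the control. CMPK1 fell by 0.60 ± 0.04 SE on the log2 scale (1.53-fold, limma adjusted p = 8.13e-06), and by 0.36 and 0.41 with the same sum and with quantile normalization. The ratio of DCK to CMPK1 was 0.661 and 0.604 in the romidepsin libraries and 0.379 in the control.

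CDA, cytidine deaminase, inactivates cytarabine before it is phosphorylated, and was at 47.1 and 45.6 FPKM after romidepsin and 50.7 FPKM in the control. The romidepsin libraries were a little lower than the control, 0.913 times its FPKM (log2 change -0.13 ± 0.04 SE, limma adjusted p = 0.0236). The call did not hold without a mean-variance trend in the fit (adjusted p = 0.0909), and the direction turned with the same sum (0.11, adjusted p = 0.0474) and with quantile normalization (0.03, adjusted p = 0.466). The depth gave about 980, 940 and 940 fragments in the romidepsin libraries and the control (a coding transcript of 963 bases), for which counting alone gives a log2 SD of 0.057. This SD exceeded the limma SE of 0.041. With the shortest coding transcript, which gives the fewest fragments, the same held for every other cytarabine gene, as for NT5C2 (0.164 against 0.053). That choice matters, since the coding transcripts of NT5C2 run from 249 to 3435 bases. Longer transcripts give more fragments and a smaller SD, so the comparison may turn for such genes. The SD with the longest transcripts was not computed. The limma SE and p-values may thus understate the uncertainty, most of all for small changes.

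DCTD, deoxycytidylate deaminase, acts on the monophosphate. It was at 29.5 and 30.9 FPKM in the romidepsin libraries and at 51.5 FPKM in the control, and the groups were well apart. DCTD fell by 0.75 ± 0.05 SE on the log2 scale (1.71-fold, limma adjusted p = 5.78e-06), by 0.52 with the same sum and by 0.59 with quantile normalization. CDA exceeded DCTD in both romidepsin libraries, with ratios of 1.59 and 1.48, against a ratio of 0.985 in the control.

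The nucleotidases changed in opposite directions. NT5C, a cytosolic deoxyribonucleotidase, was at 19.8 and 20.6 FPKM after romidepsin and at 42.3 FPKM in the control. Its mean of 20.2 ± 0.557 FPKM (SD, n = 2) was 2.10-fold lower, the largest fall of the 10 as deposited (log2 -1.03 ± 0.05 SE, limma adjusted p = 1.63e-06). The change lay just past the 2-fold rule, which uses FPKM + 1, at 2.08- and 2.01-fold lower in the romidepsin libraries, and it did not reach that rule with the same sum (log2 -0.80) or with quantile normalization (-0.90). The gene is overlapped in exons by ARMC7 on the opposite strand, per GENCODE 29, and strand use is not given in the sources used here; ARMC7 was at 11.8 and 10.7 FPKM after romidepsin and 6.37 FPKM in the control, so the 2 rows moved in opposite directions. GENCODE 29 also names 2 pseudogenes of NT5C, NT5CP1 and NT5CP2, with which reads may be shared.

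NT5M is the mitochondrial relative of NT5C. Its values were 11.5 and 12.1 FPKM in the romidepsin libraries and 7.90 FPKM in the control. NT5M rose by 0.52 ± 0.06 SE on the log2 scale to 1.49 times the control (limma adjusted p = 0.000166), the largest rise of the 10 as deposited, though SAMHD1 rose more with quantile normalization (0.66 against 0.51) and with a pseudocount of 5 (0.42 against 0.38). With the same sum the rise of NT5M was 0.74. About 400, 420 and 250 fragments stood behind these values in the romidepsin libraries and the control (shortest coding transcript 1617 bases), with a log2 counting SD of 0.105.

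NT5C2, a cytosolic nucleotidase that prefers purine monophosphates and has been studied as a determinant of cytarabine response, was at 26.3 and 28.0 FPKM after romidepsin and at 22.1 FPKM in the control. Both romidepsin libraries exceeded the control, by 1.23-fold at the mean (log2 0.29 ± 0.05 SE, limma adjusted p = 0.00174). The rise was 0.52 with the same sum and 0.38 with quantile normalization. CNNM2, which overlaps NT5C2 in exons on the opposite strand, was at 6.28 and 6.09 FPKM after romidepsin and 4.64 FPKM in the control, and reads of the shared exons cannot be told apart without strand.

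SAMHD1, the triphosphate hydrolase that removes the active form of cytarabine, had 92.5 and 93.7 FPKM in the romidepsin libraries and 68.4 FPKM in the control. It was the second most abundant of the 10 in every library. Its mean of 93.1 ± 0.831 FPKM (SD, n = 2) was 1.36 times the control (log2 0.44 ± 0.04 SE, limma adjusted p = 2.34e-05), and the pair differed by a factor of only 1.01. SAMHD1 was 0.68 higher with the same sum and 0.66 higher with quantile normalization. TLDC2, which overlaps it on the opposite strand, was under 1 FPKM in all 3 libraries (0.589 and 0.587 FPKM after romidepsin, 0.720 FPKM in the control).

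**Figure D2:**
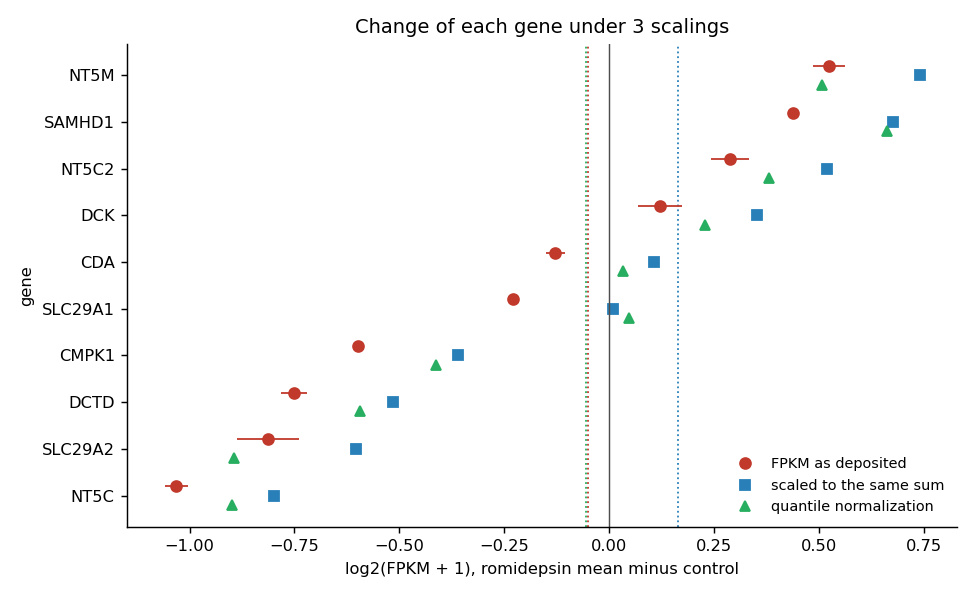
Change of each gene as log2(FPKM + 1), romidepsin mean minus control, with FPKM as deposited (red circles, with a line joining the values of the 2 romidepsin libraries), with equal sums (blue squares) and with quantile normalization (green triangles). Dotted lines mark the median of all genes under each scaling; 8 genes keep their sign throughout, while CDA and SLC29A1 cross 0.

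Scaling to the same sum moved the median of all genes by 0.21, to 0.16, and made 65.2% of all calls higher instead of 45.3%. This scaling moves every gene by nearly the same log2 amount. Changes relative to the median of all genes were therefore bound to be closely alike as deposited and with the same sum. Their likeness is no test of the changes. They were -0.98 and -0.96 for NT5C, -0.76 and -0.77 for SLC29A2, -0.70 and -0.68 for DCTD, and -0.55 and -0.53 for CMPK1. On the higher side they were 0.57 and 0.58 for NT5M, 0.49 and 0.51 for SAMHD1, 0.34 and 0.35 for NT5C2, and 0.17 and 0.19 for DCK. SLC29A1 (-0.18 and -0.15) and CDA (-0.08 and -0.06) were slightly below that median as deposited and with the same sum, but above it, at 0.10 and 0.09, with quantile normalization. The counts became 5 higher and 4 lower with the same sum, beside 5738 higher and 3061 lower among 11734 genes tested. With quantile normalization they were 4 higher and 4 lower, beside 3820 higher and 4545 lower among 11762 genes tested.

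**Figure D3:**
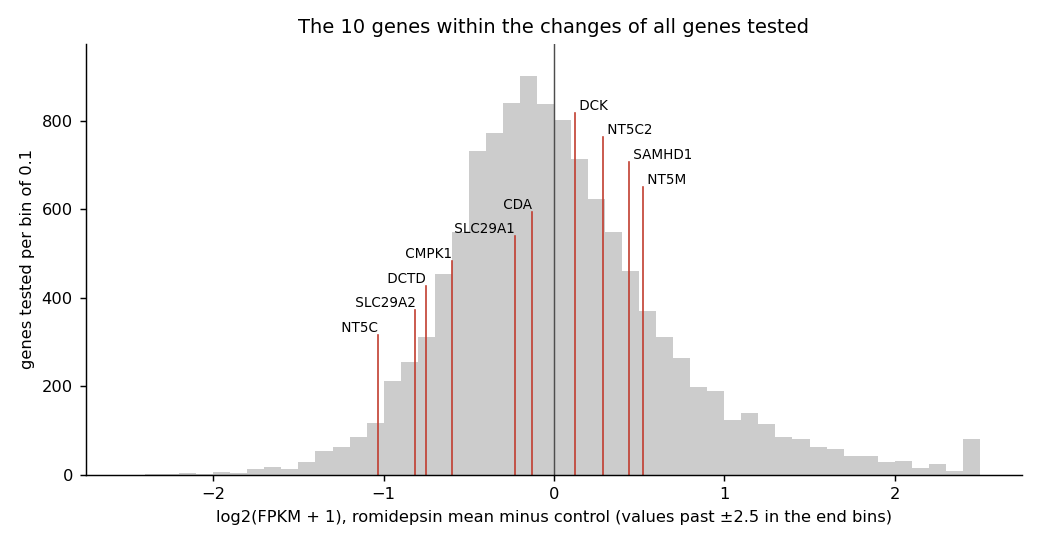
Number of genes tested (y axis) by their change in log2(FPKM + 1), romidepsin mean minus control (x axis, bins of 0.1), with red lines at the 10 cytarabine genes. The 10 genes run from NT5C, with 3.13% of all genes below it, to NT5M, with 81.4% below it.

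The order of the 10 genes by FPKM also shifted. SLC29A1 and SAMHD1 were first and second in every library. They were followed by CDA, CMPK1 and DCTD in both romidepsin libraries, and by CMPK1, DCTD and CDA in the control. NT5C was eighth in both romidepsin libraries and sixth in the control. DCK and NT5C2 overlapped after romidepsin, sixth in 1 library and seventh in the other, and were seventh and eighth in the control. The share of SAMHD1 in the summed FPKM of the 10 genes was 21.8% and 21.9% after romidepsin and 14.1% in the control, and that of SLC29A1 was 29.2% and 29.3% after romidepsin and 30.1% in the control.

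Ratios between genes inside 1 library are free of the scaling between libraries. They are given as values with no test, and since FPKM is per length, levels of different genes can be set beside each other. The ratio of DCK to DCTD was 0.926 and 0.820 after romidepsin and 0.468 in the control, and that of DCK to CDA was 0.581 and 0.556 after romidepsin and 0.475 in the control. The ratio of DCK to SAMHD1 was 0.296 and 0.271 after romidepsin and 0.352 in the control, and that of DCK to NT5C2 was 1.04 and 0.904 after romidepsin and 1.09 in the control. The kinase transcript thus stood higher relative to both deaminases and lower relative to SAMHD1 and, slightly, NT5C2. In romidepsin library 1 its fall against NT5C2 was smaller than the gap between the romidepsin libraries. The other nucleotidases differed, with a ratio of DCK to NT5C of 1.38 and 1.23 after romidepsin and 0.570 in the control. That of NT5M to DCK was 0.419 and 0.479 after romidepsin and 0.327 in the control. In all 45 pairs of the 10 genes both romidepsin ratios lay on the same side of the control, so non-overlap is not particular to these ratios.

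Of the transporters, SLC29A1 exceeded SLC29A2 25.2- and 28.9-fold after romidepsin and 16.5-fold in the control. The ratio of NT5C to NT5M was 1.73 and 1.70 after romidepsin and 5.36 in the control, a 3.13-fold lower mean. Of the 45 pairs, 13 ratios were shifted by at least 2-fold in each romidepsin library, and the widest was that of NT5M to NT5C, at 3.10- and 3.16-fold higher. This pair joins the largest rise and the largest fall as deposited. The pairs share genes and are not independent. The share over pairs of all genes tested was not computed, so these pair counts are descriptions only.

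**Figure D4:**
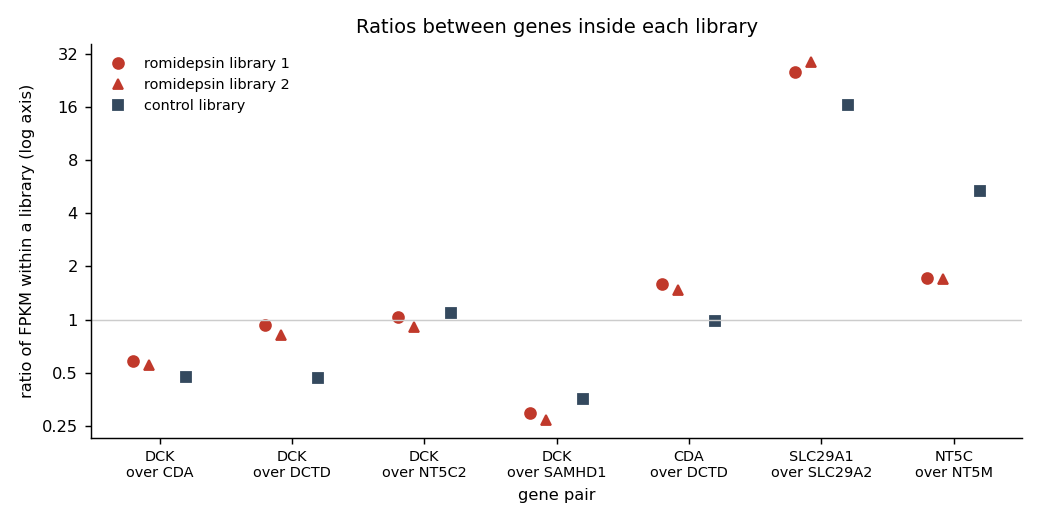
Ratio of the FPKM of 2 genes within each library (log axis) for 7 pairs, in the 2 romidepsin libraries (red circle and triangle) and the control library (dark square). NT5C over NT5M shows the widest gap, with 1.73 and 1.70 after romidepsin against 5.36 in the control; DCK over DCTD and SLC29A1 over SLC29A2 are higher after romidepsin.

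NT5C and NT5M, the relatives with the largest fall and the largest rise as deposited, are both on chromosome 17, and the 250 bases before their RefSeq start sites (GRCh38.p14, a later build than the hg19 named for these data) are shown here because the pair changed in opposite directions. NT5C lies at chr17:75131743-75131992 on the minus strand and NT5M at chr17:17303123-17303372 on the plus strand, each written 5′ to 3′ on the strand of the gene. Capitals mark GC boxes, GGGCGG on either strand.
NT5C: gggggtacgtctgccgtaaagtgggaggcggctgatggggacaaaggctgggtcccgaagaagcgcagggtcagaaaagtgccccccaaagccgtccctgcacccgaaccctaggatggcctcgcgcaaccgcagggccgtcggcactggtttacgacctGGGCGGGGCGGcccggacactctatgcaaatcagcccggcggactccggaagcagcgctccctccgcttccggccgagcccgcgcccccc
NT5M: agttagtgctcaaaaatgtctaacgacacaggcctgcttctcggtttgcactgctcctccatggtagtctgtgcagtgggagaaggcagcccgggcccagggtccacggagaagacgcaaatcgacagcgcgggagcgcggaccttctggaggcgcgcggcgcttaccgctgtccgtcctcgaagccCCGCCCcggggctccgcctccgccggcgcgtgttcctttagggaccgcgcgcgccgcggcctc
The NT5C window held 2 overlapping GC boxes, whose first bases lay 90 and 85 bases before the start, and the NT5M window held 1, at 63 bases before the start. Both windows were rich in G and C, at 69.2% and 67.2% against a median of 58.0% over all promoters.

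RefSeq promoters were found for 9 of the 10 genes, in 13 entries since some have several starts. They place CDA and CMPK1 on chromosome 1, DCK and DCTD on chromosome 4, SLC29A1 on chromosome 6, NT5C2 on chromosome 10, NT5C and NT5M on chromosome 17 and SAMHD1 on chromosome 20. GC boxes were in 8 of the 13 entries and in 42.6% of 35116 promoters of all genes. These entries came from 6 of the 9 genes (DCK, DCTD, NT5C, NT5C2, NT5M and SLC29A1), genes that include both higher and lower ones. For NT5C2 only 1 entry had the box. The CCAAT box (CCAAT, either strand) was found in SAMHD1 alone of the 9, with 2 matches, and in 32.0% of all promoters. The E-box CACGTG was in DCK and in 1 entry of SLC29A1, and in 6.34% of all promoters. The TATA box (TATAAA, either strand) was in 0 of the 13 entries and in 10.7% of all promoters. A match describes these letters only, not a bound site.

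A wider list of 37 symbols covered other nucleoside transporters, efflux pumps, kinases, nucleotidases, deoxycytidine triphosphate (dCTP) supply and DNA polymerases. Of these, 31 were tested in 30 rows, since NME1 and NME2 share a joint row, and 6 were under 1 FPKM everywhere (SLC28A1, SLC28A2, ABCC11, ABCG2, NT5C1A and NT5E). As deposited, 6 of the 30 rows were called higher and 18 lower, beside 34.7% higher and 41.8% lower among all genes tested. The median of the rows was -0.25, against -0.05 for all genes, but -0.07 against -0.06 with quantile normalization. With the same sum 11 were called higher and 11 lower, beside 5738 higher and 3061 lower among 11734 genes tested. With quantile normalization 8 were higher and 14 lower, beside 3820 and 4545 among 11762 genes tested. Calls were so common among all genes (76.5%) that the counts in the groups below are read as descriptions only.

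Of 3 further import genes tested, 2 were called higher and 1 lower, beside 34.7% and 41.8% of all genes. SLC29A4, a monoamine and adenosine transporter, was at 8.23 and 7.81 FPKM after romidepsin and 4.70 FPKM in the control (log2 0.66 ± 0.07 SE, limma adjusted p = 8.53e-05). SLC29A3, an intracellular nucleoside transporter, was at 9.59 and 9.79 FPKM after romidepsin and 6.05 FPKM in the control (log2 0.60 ± 0.06 SE, limma adjusted p = 7.89e-05). Both were also higher under the other scalings (0.87 and 0.81 with the same sum, 0.54 and 0.54 with quantile normalization), whereas SLC29A2 was lower under each. Of 3 efflux pump genes tested, ABCC4, which exports nucleoside monophosphates, fell to 6.96 and 7.40 FPKM after romidepsin, against 10.4 FPKM in the control (log2 -0.48 ± 0.07 SE, limma adjusted p = 0.000374), and ABCC10 was at 4.71 and 4.34 FPKM after romidepsin and 3.94 FPKM in the control (adjusted p = 0.116).

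The NME genes encode nucleoside diphosphate kinases, which form the triphosphate after CMPK1, and all 4 of their rows were called lower as deposited, with negative changes under both other scalings. NME4, the mitochondrial one, was at 62.0 and 65.8 FPKM after romidepsin and 158 FPKM in the control, a 2.48-fold fall of the mean (limma adjusted p = 5.46e-07). On the log2(FPKM + 1) scale NME4 was the single row of the 30 at least 2-fold lower in both libraries, a rule met by 3.08% of all genes. NME4 did not meet that rule with quantile normalization. The joint row of NME1 and NME2 was at 745 and 740 FPKM after romidepsin and 1290 FPKM in the control, a 1.74-fold fall (limma adjusted p = 7.65e-07). In the kinase group 5 of 8 rows were called lower and 1 higher, beside 41.8% and 34.7% of all genes.

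All 3 further nucleotidase rows were called lower as deposited, beside 41.8% of all genes, and 2 of the 3 with the same sum or quantile normalization. NT5C3A, a pyrimidine nucleotidase, was at 10.5 and 10.3 FPKM after romidepsin and 16.1 FPKM in the control (log2 -0.58 ± 0.05 SE, limma adjusted p = 4.75e-05). NT5C1B was read only in a joint row with RDH14, at 8.45 and 8.41 FPKM after romidepsin and 11.4 FPKM in the control (adjusted p = 0.000562), so its own level is unknown.

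Among 7 genes of dCTP supply and breakdown, 5 were called lower and 2 higher as deposited, beside 41.8% and 34.7% of all genes, and 3 lower and 2 higher with the same sum and with quantile normalization. CTPS1, which makes CTP from UTP, was at 27.2 and 26.3 FPKM after romidepsin and 54.5 FPKM in the control, a 2.04-fold fall of the mean (limma adjusted p = 1.39e-06). It missed the 2-fold rule only because that rule uses FPKM + 1, with a mean log2 change of -0.9996. TYMS, thymidylate synthase, was at 155 and 149 FPKM after romidepsin and 263 FPKM in the control (1.73-fold, limma adjusted p = 1.62e-06). Of the polymerase and primase genes, 3 of 6 were called lower and 1 higher as deposited, beside 41.8% and 34.7% of all genes. With the same sum 3 were higher and the other 3 not called, beside 5738 higher and 2935 not called among 11734 genes tested. PRIM2, a primase subunit, was at 35.2 and 35.9 FPKM after romidepsin and 29.3 FPKM in the control (log2 0.27), and POLD1, a polymerase subunit, was at 58.2 and 57.5 FPKM after romidepsin and 69.6 FPKM in the control (log2 -0.26, or -0.02 with the same sum).

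**Figure D5:**
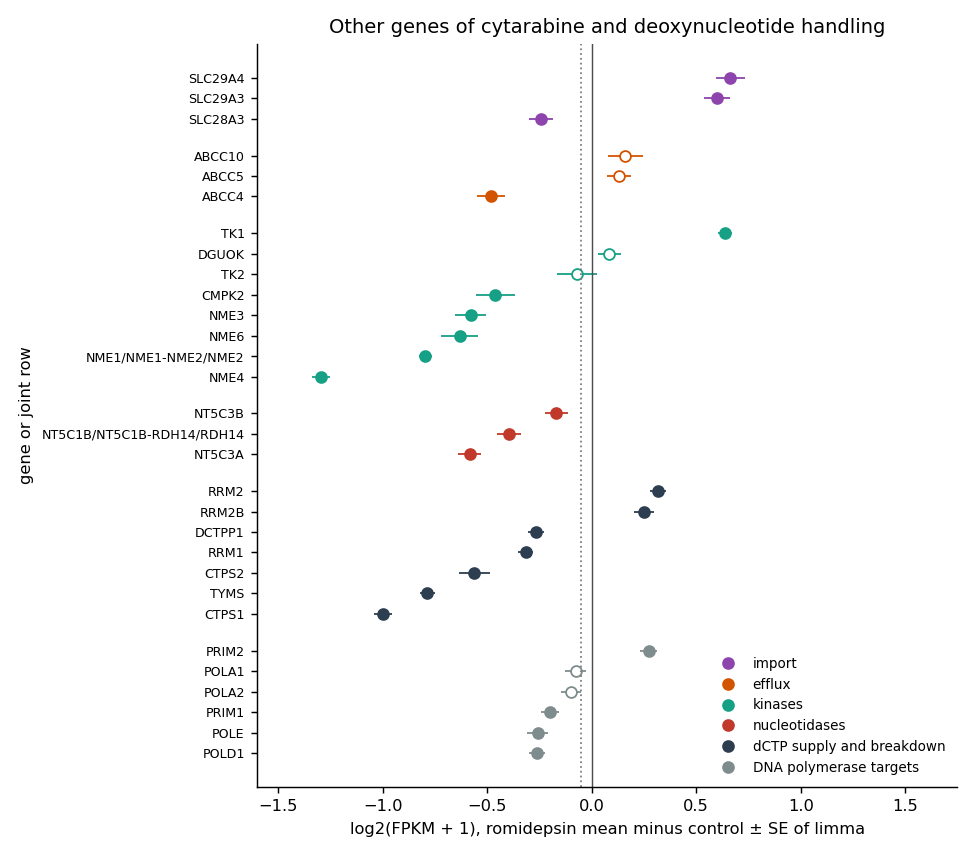
Change of the 30 tested rows of the wider list as log2(FPKM + 1), romidepsin mean minus control, with the standard error of limma; filled points were called at an adjusted p under 0.05 and open points were not, and the dotted line marks the median of all genes. NME4 (-1.29) and CTPS1 lie farthest to the left, and SLC29A4 (0.66), TK1 (0.64) and SLC29A3 (0.60) farthest to the right.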

How the data were processed

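Gene expression was measured by RNA sequencing in 2 romidepsin libraries and 1 control library, grouped by the treatment label. The authors deposited FPKM per gene name, per the file headers. The submitters' processing notes name TopHat, Cufflinks, Cuffdiff and hg19. The sources used here give no annotation, version, strand use or scaling between libraries. Of 28837 rows, 1770 without a name (21.1% to 22.3% of the FPKM of a library) and 27 named by a number were left out, and rows of a symbol were summed. limma 3.58.1 in R 4.3.3 was fitted to log2(FPKM + 1) of all 11708 genes with 1 FPKM in at least 1 library (eBayes with trend, 1 residual and 6.06 prior degrees of freedom), with Benjamini-Hochberg adjustment. The single control library was taken to vary as the romidepsin libraries do. The steps were tested on simulated data. Depth and fragment numbers used GENCODE 29 transcript lengths, of another build, and are approximate; intervals from them cover counting error only. Promoters were those of RefSeq (GRCh38.p14). The text names all 10 genes and, of the wider list, the 2 tested rows of each group with the largest change; TK1 in a caption was added after its value was seen. The genes and lists were chosen with earlier results of these data known. Alternatives changed the pseudocount, filter, scaling, joint rows, variance trend and romidepsin libraries. Python 3.11.15, numpy 2.4.6, pandas 2.3.3 and matplotlib 3.10.9 were used. A further marker list is not reported here.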

Additional observations from a re-analysis of the deposited data

How the results depend on the processing

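Of the 10 genes, NT5C, SLC29A2, DCTD, CMPK1, NT5M, SAMHD1, NT5C2 and DCK kept their direction under every alternative run. Log2 changes ran from -1.06 to -0.80 for NT5C and from 0.42 to 0.68 for SAMHD1. Only the same sum and quantile normalization could turn a direction. The other alternatives could not, since both romidepsin libraries lay on the same side of the control in all 10 genes. SLC29A1 and CDA turned, to 0.01 and 0.108 with the same sum and to 0.048 and 0.033 with quantile normalization; the cause was not tested. Without a filter on low values, where the fit also held genes at 0 in every library, 1 member was called higher and 2 lower (SAMHD1, CMPK1 and NT5C), the wider list had 2 and 8, and all genes had 2047 and 2088. With the same sum, 5 members were called higher and 4 lower, the wider list had 11 and 11, and all genes had 5738 and 3061. No member met the 2-fold rule downward (0) with a pseudocount of 5, with the same sum or with quantile normalization. The log2 difference of the NT5C to NT5M ratio was -1.65, and -1.56 with 1 FPKM added to both. Leaving out either romidepsin library kept every direction, as it must where both lie on the same side of the control. These are values with no test. No paired analysis was possible because the labels give the control no replicate number and it has 1 library. With 1 control library, a difference between cultures and that of romidepsin cannot be told apart.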
